A study of Mus musculus with 6 samples.

Results

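The genes described here are 32 genes of the unfolded protein response and the integrated stress response, found in the deposited count table by their gene symbols. All 32 were present among the 21847 genes of the table, and all 32 were among the 14605 genes that had enough counts to be tested. They fall into 4 groups by role: 6 sensors and factors, 7 targets of the transcription factor ATF4, 14 chaperones and folding enzymes of the endoplasmic reticulum (ER), and 5 genes of ER-associated degradation.

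The unfolded protein response is set off when unfolded proteins gather in the ER, where secreted and membrane proteins are folded. IRE1 (gene Ern1) then splices the Xbp1 transcript, ATF6 is cut to free a transcription factor, and PERK (gene Eif2ak3) phosphorylates the translation factor eIF2α (gene Eif2s1). Phosphorylated eIF2α slows protein synthesis in general while translation of Atf4 goes up, and this step is shared with the integrated stress response, which other kinases start after amino acid lack, viral RNA or haem shortage. In phagocytes, the ER also takes part in sensing lipid and cholesterol load. Counts per gene do not show Xbp1 splicing, ATF6 cleavage, eIF2α phosphorylation or ATF4 translation, so all values below are transcript levels of whole genes.

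The series compared mouse (Mus musculus) spleen cells labelled as sorted macrophages, taken from T cell-depleted splenocytes that had been cultured for 3 days on human cord tissue mesenchymal stromal cells (MSCs). Qtracker, the label on the MSCs, is a fluorescent quantum dot. Sorted cells that held the label are marked in the labels as having engulfed MSCs (Qtracker positive, 3 libraries) and were set against sorted cells without it (Qtracker negative, 3 libraries). Both groups had the same culture with MSCs, so neither is an unexposed control, and no source used here gives the strain or age of the mice. The gate is given as CD11b+ Ly6G- in one place and as CD11b+Ly6C- in another. The series calls the libraries paired triplicates, numbered 1 to 3, and the labels do not say whether the numbers stand for separate animals. Each p-value thus reflects how these 6 libraries scatter, and part of that scatter may be technical.

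Library totals ran from 33943090 to 44061187 estimated counts in the negative group and from 42490705 to 55506993 in the positive group. Replicates 2 and 3 lay close together, with a median absolute log2 difference over all tested genes of 0.0676 (negative) and 0.108 (positive), and replicate 1 stood apart. Relative to the mean of replicates 2 and 3, 12.3% of tested genes in the negative libraries and 8.01% in the positive ones were over 2-fold higher in replicate 1, and 17.4% and 10.8% were over 2-fold lower. Macrophage markers checked the label. The summed level of 10 such genes was 357, 1894 and 1843 CPM (counts divided by the scaled total of their library) in negative replicates 1, 2 and 3. In positive libraries it was 9468 to 12863, also lowest in replicate 1, and 8 of the 10 rose. In the negative libraries, markers of other cells were high. Their summed CPM was 3185 to 65370 for 10 neutrophil genes, lowest in replicate 1, 3836 to 5709 for 9 plasma cell genes and 1815 to 5403 for 8 B cell genes, both highest in replicate 1. The corresponding ranges in positive libraries were 1302 to 1914, 265 to 311 and 199 to 271. Of these genes, 8 of 10, 6 of 9 and 8 of 8 fell. Igkc held 4729 CPM of the plasma cell sum in negative replicate 1. Jchain was lower in that library (307 CPM) than in negative replicates 2 and 3 (517 and 500). All 10 markers of NK and T cells fell as well. So did 3 of 7 of plasmacytoid and dendritic cells (1 rose), 5 of 8 of eosinophils, basophils and mast cells (2 rose) and 3 of 9 proliferation genes. Over all tested genes, 18.5% rose and 16.3% fell. Summed CPM of the plasmacytoid and dendritic list was higher in positive libraries (288 to 334) than in negative ones (133 to 192). For NK and T cells the negative range was 19.5 to 137 and the positive range 1.83 to 8.25. These ranges were 78.6 to 384 and 81.3 to 312 for eosinophils, basophils and mast cells, and 509 to 1423 and 282 to 361 for proliferation genes. Fewer cells of a type and less RNA per cell cannot be told apart in bulk RNA, and this holds for every level below.

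Most of the 32 genes were higher in Qtracker positive libraries, with ER chaperones the group most often called. A gene was called when its Benjamini-Hochberg adjusted p over all tested genes was under 0.05 by the quasi-likelihood test of edgeR, with the replicate number as a block. By this rule 13 of the 32 rose, 2 fell and 17 were not called. Of all 14605 tested genes, 18.5% rose and 16.3% fell, so 34.9% were called in either direction. Among all calls 53.2% were higher, and with library totals alone as scaling 32.2% were. The median log2 fold change (positive minus negative) of the 32 genes was 0.71, against -0.01 over all tested genes. All positive libraries lay above all negative ones for 18 of the 32 genes (30.0% of all tested genes) and below them for 3 (29.4% of all). In the 3 pairs taken singly, the median log2 ratio of the 32 genes was 1.06, 0.47 and 0.49. The number of calls changed with the replicates entered. Without replicate 1, 25 of the 32 rose and 6 fell, when 37.1% of all tested genes rose and 35.8% fell. Without replicate 2, only Atf3 was called among the 32, when 136 of 14831 tested genes rose and 175 fell. Without replicate 3 no tested gene was called, although 8 of the 32 and 4209 of all tested genes then had an unadjusted p under 0.05. With replicates 2 and 3 of each group summed into 1 library, edgeR called no gene. The smallest adjusted p among the 32 was then 0.0531, and an unadjusted p under 0.05 was found for 10 of the 32 and for 4488 genes in all. This fit ends every call given below.

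**Figure D1:**
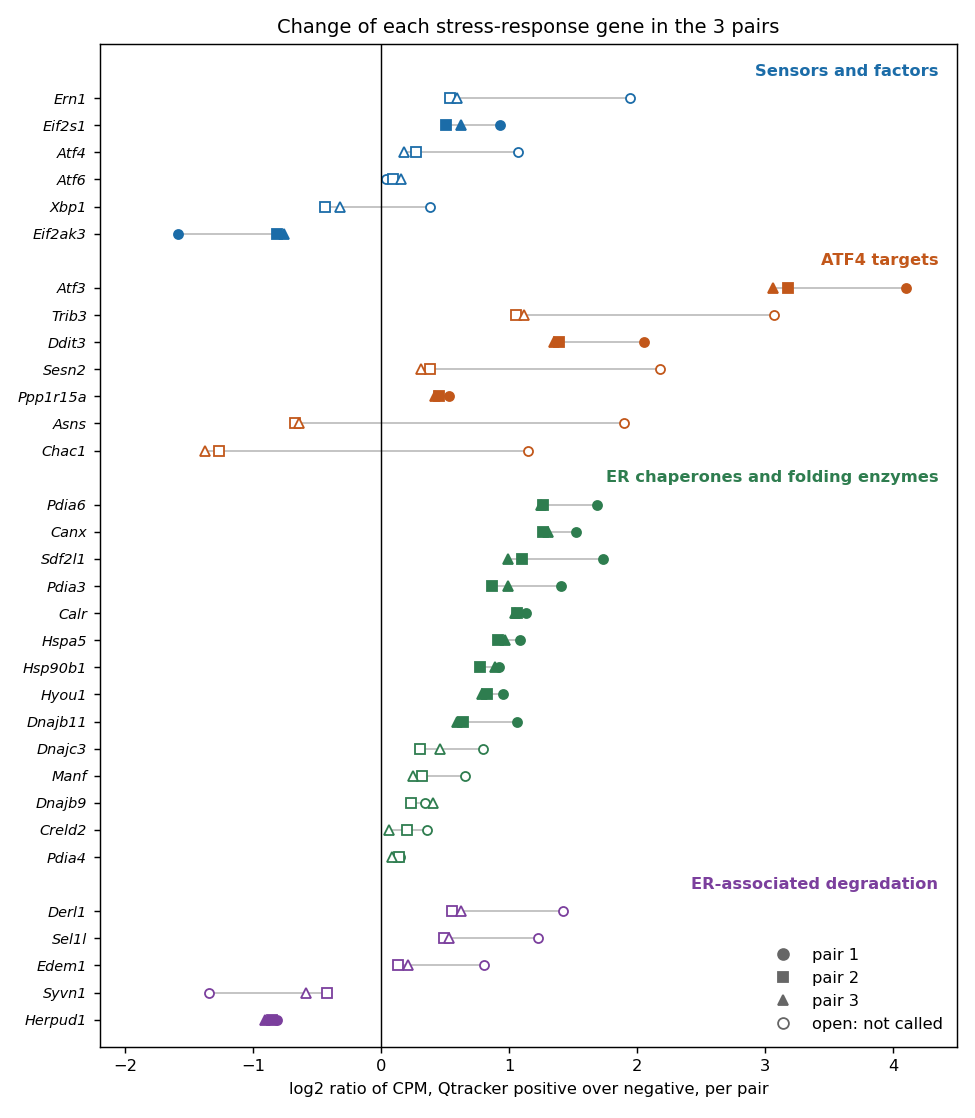
Log2 ratio of CPM, Qtracker positive over negative, of each of the 32 genes in pair 1 (circles), pair 2 (squares) and pair 3 (triangles), by role group; filled symbols mark genes called by edgeR and open symbols genes not called. The 14 chaperone and folding genes lie right of 0 in all 3 pairs under the scaling used, as did 5361 of all 14605 tested genes. With library totals alone the fitted values of Dnajb9, Pdia4 and Creld2 fall below 0. The circles of most ATF4 targets lie far right of the squares and triangles.

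Among the sensors and factors, 1 of 6 rose and 1 fell, a share near that of all tested genes (34.9% in either direction), with a median log2 fold change of 0.30. Eif2ak3, which encodes the ER-resident eIF2α kinase PERK (chromosome 6 from 70844515 to 70905245, mm10), measured 116, 81.4 and 82.3 CPM in negative replicates 1, 2 and 3 and 38.7, 46.4 and 48.5 in positive replicates 1, 2 and 3. Every positive library was below every negative one, and the fall was 2.08-fold (log2 fold change -1.05 ± 0.22, standard error; adjusted p = 0.0364). Eif2s1, which encodes eIF2α itself, measured 42.6, 43.8 and 43.2 CPM in the negative libraries and 81.0, 62.1 and 66.4 in the positive ones. The groups were apart and the negative libraries nearly equal, and the rise was 1.61-fold (0.68 ± 0.14, adjusted p = 0.0327). This call was lost with library totals alone as scaling (adjusted p = 0.0933) and with the authors' normalized values (0.0639).

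The other 4 sensors and factors were not called. Ern1, the IRE1 kinase and nuclease that splices Xbp1, measured 42.7, 67.3 and 64.4 CPM in negative libraries and 164, 97.6 and 96.9 in positive ones. Its groups did not overlap, yet pair 1 differed far more than pairs 2 and 3 (log2 ratios 1.94, 0.54 and 0.59), and the log2 fold change was 1.02 ± 0.36 with an adjusted p of 0.0991. Without the replicate block the adjusted p was 0.0310. Atf6, the membrane-bound factor released by cleavage, was flat at 152, 126 and 127 CPM in negative libraries and 156, 134 and 141 in positive ones (0.09 ± 0.11, adjusted p = 0.532).

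Xbp1, whose spliced form drives folding and degradation genes and which plasma cells need for secretion, measured 164, 268 and 259 CPM in negative libraries and 214, 197 and 207 in positive ones. The positive libraries all lay within the range of the negative ones (-0.13 ± 0.22, adjusted p = 0.672). Pair 1 had Xbp1 higher in the positive library by 0.38 on the log2 scale, whereas pairs 2 and 3 had ratios of -0.44 and -0.32. Atf4 measured 219, 188 and 193 CPM in negative libraries and 459, 227 and 218 in positive ones. Positive replicate 1 held 2.06 times the mean of the other 2 positive libraries, the groups overlapped by a narrow margin, and the change was not called (0.50 ± 0.24, adjusted p = 0.173). Without replicate 1, when 37.1% of all tested genes rose and 35.8% fell, all 6 sensors and factors were called. Eif2ak3 and Xbp1 were then lower and the other 4 higher. None was called without replicate 2, when 136 of 14831 tested genes rose and 175 fell. Without replicate 3, no tested gene was called.

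Of the 7 ATF4 targets, 3 rose, none fell and 4 were not called, and their median log2 fold change was 0.94. This is 42.9% called, against 34.9% of all tested genes (18.5% rose). Atf3, a stress-induced factor of the same family that also responds to inflammatory signals (chromosome 1 from 191170296 to 191218039), changed most of all 32 genes. It measured 7.64, 15.4 and 14.5 CPM in negative libraries and 132, 139.9 and 121 in positive ones. The positive libraries were alike, all about an order of magnitude above the negative ones, and the rise was 10.9-fold (3.45 ± 0.28, adjusted p = 0.00972). Ddit3, which encodes CHOP, the factor linked to cell death under lasting ER stress (chromosome 10 from 127290774 to 127296288), measured 18.9, 12.5 and 12.2 CPM in negative libraries and 78.5, 32.8 and 31.0 in positive ones. Its groups were apart, with replicate 1 highest in both, and the rise was 3.02-fold (1.60 ± 0.20, adjusted p = 0.0157). Exons of Ddit3 share 68 bases with Mars on the other strand, and no source used here says whether reads were assigned by strand.

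Ppp1r15a, the GADD34 subunit that brings a phosphatase to eIF2α and so ends the response, measured 105, 31.8 and 30.6 CPM in negative libraries and 152, 43.4 and 40.9 in positive ones. The groups overlapped because both replicate 1 libraries were high, but each pair showed a like ratio (0.53, 0.45 and 0.42 on the log2 scale). The rise of 1.38-fold (0.47 ± 0.10, adjusted p = 0.0395) rests on the pairing: without the replicate block the adjusted p was 0.615. It was also not called with library totals alone (0.465) or with the authors' normalized values (0.0844).

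The 4 targets that were not called differed between pairs. Trib3, a pseudokinase induced through ATF4 and CHOP, measured 14.5, 6.54 and 6.51 CPM in negative libraries and 122, 13.6 and 14.1 in positive ones. Positive replicate 1 stood 8.80-fold above the mean of the other 2 positive libraries, and the log2 fold change was 1.73 ± 0.52 (adjusted p = 0.0710). Sesn2, a sestrin that restrains mTORC1 when leucine is short, measured 32.4, 56.9 and 56.6 CPM in negative libraries and 147, 74.1 and 70.0 in positive ones. Its groups were apart (0.94 ± 0.47, adjusted p = 0.193).

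Asns and Chac1 had opposite directions in the pairs. Asns, which makes asparagine and is a classic readout of amino acid lack, measured 28.7, 42.3 and 42.6 CPM in negative libraries and 107, 26.5 and 27.3 in positive ones. Only positive replicate 1 was above the negative libraries, and the other 2 were below all of them (0.15 ± 0.66, adjusted p = 0.873). Chac1, which degrades glutathione, measured 7.09, 11.2 and 12.2 CPM in negative libraries and 15.7, 4.62 and 4.65 in positive ones (-0.55 ± 0.65, adjusted p = 0.542). Without replicate 1, both were called lower, with log2 fold changes of -0.65 and -1.32 (35.8% of all tested genes were lower). The other 5 targets were then called higher (37.1% of all). Without replicate 2, 1 target was called, when 136 of 14831 tested genes rose and 175 fell. Without replicate 3, no tested gene was called.

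High levels in positive replicate 1 were common to this group. For 6 of the 7 targets, positive replicate 1 was more than 2-fold above the mean of positive replicates 2 and 3, against 8.01% of all tested genes, and Atf3, at 1.01-fold, was the exception. Among negative libraries the same ratio exceeded 2 for Trib3 and Ppp1r15a. The ratio was above 2 for none of the 14 chaperones and none of the degradation genes in the positive group. Other features of replicate 1, such as its marker levels given above, also set it apart, and their part in these levels was not tested.

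**Figure D2:**
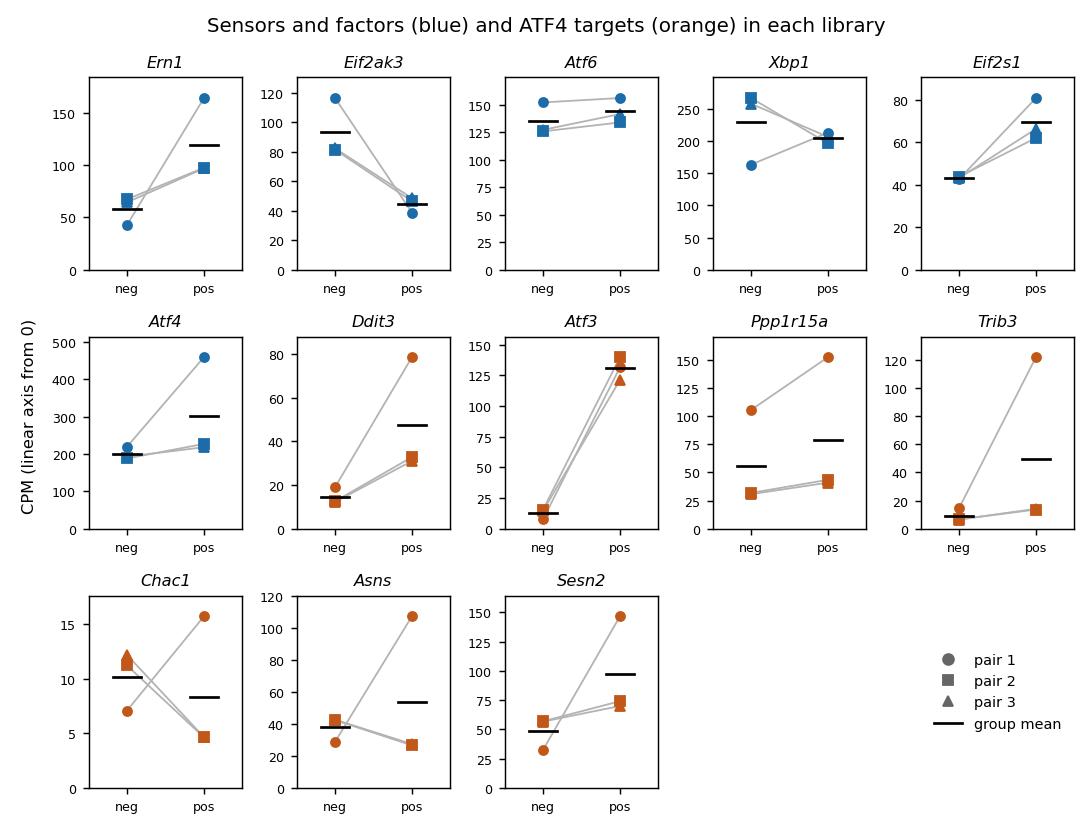
CPM of the 6 sensors and factors (blue) and the 7 ATF4 targets (orange) in Qtracker negative (neg) and positive (pos) libraries, on linear axes from 0; lines join the libraries of a pair and black bars are group means (n = 3). Atf3 is high in all 3 positive libraries, whereas Trib3, Asns, Sesn2 and Atf4 are high mainly in positive replicate 1.

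ER chaperones and folding enzymes formed the most uniform group. Of the 14 genes, 9 rose (18.5% of all tested genes did), none fell (16.3% of all) and 5 were not called. Their median log2 fold change was 0.86, with a range of 0.12 to 1.40. All 14 were higher in the positive library of every pair, as were 5361 of all 14605 tested genes. With library totals alone as scaling, however, the fitted values of Dnajb9, Pdia4 and Creld2 turned slightly negative. For 11 of the 14, every positive library lay above every negative one, as for 30.0% of all tested genes. Their summed CPM was 3173 to 3233 in negative libraries and 5958 to 6738 in positive ones, and the pair medians (1.01, 0.80 and 0.84) were closer to each other than those of the ATF4 targets (2.05, 0.45 and 0.42). The difference between the 2 groups in this respect was not tested.

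Hspa5, which encodes BiP, the ER chaperone that holds the sensors inactive until unfolded proteins draw it away (chromosome 2 from 34771970 to 34777547), measured 475, 474 and 485 CPM in negative libraries and 1007, 892 and 948 in positive ones. The negative libraries were nearly equal, and the rise was 1.98-fold (0.99 ± 0.15, adjusted p = 0.0219). Canx, the membrane-bound lectin chaperone calnexin of the glycoprotein folding cycle, measured 251, 323 and 335 CPM in negative libraries and 723, 777 and 824 in positive ones. Its groups were far apart, with a rise of 2.57-fold (1.36 ± 0.15, adjusted p = 0.0138). Pdia6, a protein disulfide isomerase of the ER, measured 163, 164 and 169 CPM in negative libraries and 524, 394 and 401 in positive ones. This was the largest rise of the group, at 2.64-fold (1.40 ± 0.16, adjusted p = 0.0145).

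Hyou1, a large HSP70-like chaperone that exchanges nucleotide on BiP, measured 194, 164 and 165 CPM in negative libraries and 375, 291 and 284 in positive ones. Replicate 1 was highest in each group, the groups were apart, and the rise was 1.81-fold (0.86 ± 0.12, adjusted p = 0.0197). The 5 other genes that rose were the soluble lectin chaperone Calr (1.08), its disulfide isomerase partner Pdia3 (1.08), Sdf2l1 (1.27), the ER HSP90 paralogue Hsp90b1 (0.86) and the BiP cochaperone Dnajb11 (0.76). Adjusted p ran from 0.0200 to 0.0339 over these 5. Calls were lost with library totals alone for Hsp90b1 (adjusted p = 0.0755), Dnajb11 (0.0708) and Hyou1 (0.0505). That scaling placed the median of all tested genes at -0.36, and the median of the 14 genes was then 0.51.

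Members that were not called included further BiP cochaperones and secreted factors. Dnajc3, which also inhibits PERK, had a log2 fold change of 0.52 (adjusted p = 0.0667), with groups apart and a call without the replicate block (0.0342). Dnajb9, the BiP cochaperone that represses IRE1, had 0.33, and its levels were lowest in replicate 1 of each group. Manf, a stress-induced secreted factor, had 0.41, and its exons share 146 bases with Dcaf1 on the other strand. Creld2 (0.20) and the disulfide isomerase Pdia4 (0.12, adjusted p = 0.451) were nearly level. Pdia4 was high in both replicate 1 libraries, at 289 CPM in the negative and 319.7 in the positive, against 159.97 to 179 in the other 4. Without replicate 1, 13 of the 14 genes rose (37.1% of all tested genes did) and Creld2 was not called. None was called without replicate 2, when 136 of 14831 tested genes rose and 175 fell. Without replicate 3, no tested gene was called.

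Degradation genes were mixed in direction. Of the 5, none rose (18.5% of all tested genes did) and 1 fell (16.3% of all did). The share called in either direction was below the 34.9% of all tested genes. Their median log2 fold change was 0.38. Herpud1, an ER membrane protein that gathers the ubiquitin ligase complex and is usually induced strongly by ER stress (chromosome 8 from 94386438 to 94395377), measured 138, 93.2 and 91.1 CPM in negative libraries and 78.3, 51.5 and 48.5 in positive ones. Every positive library was below every negative one, the pair ratios were nearly equal (-0.82, -0.86 and -0.91 on the log2 scale), and the fall was 1.82-fold (-0.86 ± 0.10, adjusted p = 0.0149). Syvn1, the ubiquitin ligase HRD1 of the same complex, is shown in full because its values stood out once seen. It measured 257, 123 and 122 CPM in negative libraries and 101, 91.6 and 81.0 in positive ones. The groups were apart, with negative replicate 1 far above the rest, and the change was not called (-0.78 ± 0.23, adjusted p = 0.0710). Exons of Syvn1 share 91 bases with Mrpl49 on the other strand.

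The other degradation genes were not called but were higher in all 3 pairs, as were 5361 of all 14605 tested genes. Sel1l, the partner that stabilises HRD1, had a log2 fold change of 0.75 (adjusted p = 0.0631), and Derl1, a derlin of the export channel, had 0.86 (0.0593). Both had groups apart, and both were called without the replicate block (0.0212 and 0.0178). Edem1, a lectin that picks misfolded glycoproteins, had 0.38 (adjusted p = 0.209), with overlapping groups. Without replicate 1 all 5 were called, Herpud1 and Syvn1 lower (35.8% of all tested genes) and the other 3 higher (37.1%). None was called without replicate 2, when 136 of 14831 tested genes rose and 175 fell. Without replicate 3, no tested gene was called. Eif2ak3, Herpud1 and Syvn1 were highest in negative replicate 1, the library with the highest summed B cell and plasma cell markers. Those sums were 5403 and 5709 CPM there, and 1815 to 1909 and 3836 to 3939 in the other negative libraries. In positive libraries they were at most 271 and 311. Igkc held 4729 CPM of the 5709. Sdc1, Mzb1, Irf4 and Pou2af1 were also highest in negative replicate 1. Jchain (307 CPM against 517 and 500), Prdm1 and Tnfrsf17 were lowest there among negative libraries. Derl3, at 3.09 to 4.59 CPM in negative libraries, was at 0 in 2 positive ones, and Tnfrsf17, at 0.252 to 0.694, in 1. Prdm1 was higher in 2 of 3 pairs and was not called. The part of these marker levels in the lower levels of Eif2ak3, Herpud1 and Syvn1 was not tested.

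**Figure D3:**
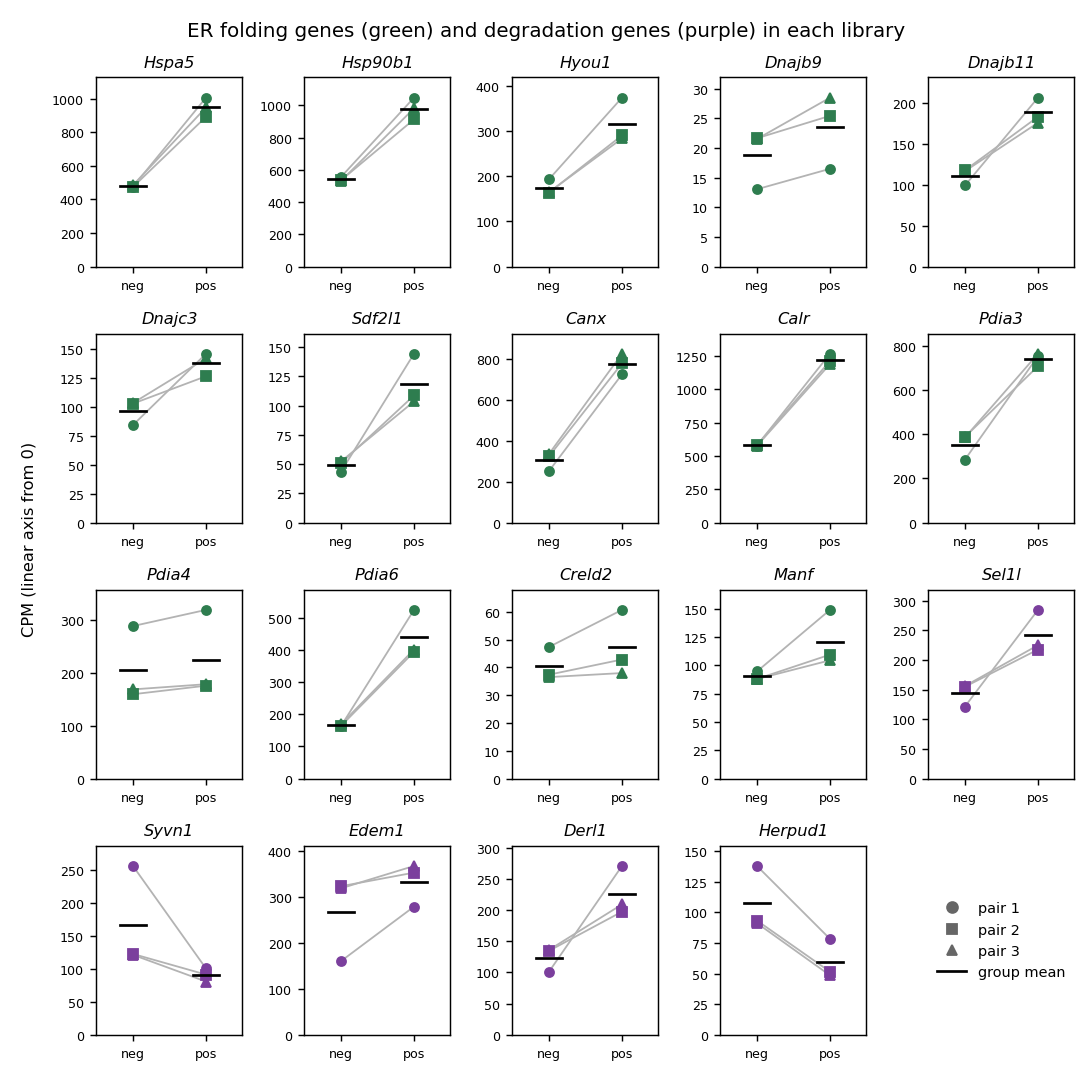
CPM of the 14 chaperone and folding genes (green) and the 5 degradation genes (purple) in Qtracker negative (neg) and positive (pos) libraries, on linear axes from 0; lines join the libraries of a pair and black bars are group means (n = 3). Hspa5, Canx and Pdia6 lie in 2 separate bands, whereas Herpud1 and Syvn1 are lower in every positive library.

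Promoter sequences are shown because some genes that share an element were called and others were not, and because Dnajb11 and Herpud1, which share one, were called in opposite directions. RefSeq windows (GRCm38.p6, from 250 bases before to 50 after the transcript start) were at hand for 28 of the 32 genes and were searched on both strands. The ER stress response element, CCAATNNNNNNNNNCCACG, bound by ATF6 with NF-Y, was in 0.119% of all 32851 windows. It was found in 8 of the 28 genes: the chaperone and folding genes Calr, Canx, Creld2, Dnajc3, Hsp90b1, Hspa5 and Pdia6, and Syvn1. ERSE-II, ATTGGNCCACG, was in 0.0365% of windows and in Dnajb11 and Herpud1. In these sites, written 5′ to 3′ on the strand that carries the motif, capitals mark its fixed letters:
Hspa5: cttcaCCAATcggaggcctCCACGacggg
Canx: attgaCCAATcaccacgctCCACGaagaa
Pdia6: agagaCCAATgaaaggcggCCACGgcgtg
Syvn1: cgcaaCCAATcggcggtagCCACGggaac
Dnajb11: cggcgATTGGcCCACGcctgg
Herpud1: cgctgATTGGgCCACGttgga
Their positions are chr2:34772020-34772048 (plus strand), chr11:50325795-50325823 (minus), chr12:17266486-17266514 (plus), chr19:6046527-6046555 (plus), chr16:22857847-22857867 (plus) and chr8:94386372-94386392 (plus), in the order printed. Of the 10 genes with either element, Calr, Canx, Hsp90b1, Hspa5, Pdia6 and Dnajb11 rose, Herpud1 fell, and Creld2, Dnajc3 and Syvn1 were not called. TGACGTGG, the core of the unfolded protein response element, was in 0.676% of windows and in none of the 28 genes. A match describes letters in the window and not binding.

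The composite element read by ATF4 with C/EBP proteins, TGATGNAA, was in 3.97% of windows and in 5 of the 28 genes, 4 of them ATF4 targets. These are shown because Atf3 was uniformly high in the positive libraries and the others were not:
Atf3: cttggTGATGcAAgtgcg
Trib3: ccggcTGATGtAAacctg
Asns: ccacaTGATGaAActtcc
Chac1: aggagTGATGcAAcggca
The sites lie at chr1:191183431-191183448 (plus), chr2:152344034-152344051 (plus), chr6:7693220-7693237 (minus) and chr2:119351044-119351061 (minus). The fifth gene was Herpud1. Ddit3, Ppp1r15a and Sesn2 had no match in their windows. The Atf3 window (chr1:191183284-191183583) lies inside the Atf3 gene span given above and not at its 5′ end (191218039, minus strand). Its site is thus near an internal RefSeq transcript start.

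Other genes of the same pathways were counted in 8 wider lists. Of 24 tested genes among other integrated stress response and ATF4 targets, 9 rose (18.5% of all tested genes did) and 3 fell (16.3% of all did). The median log2 fold change of these 24 was 0.67. Slc7a11, the cystine and glutamate exchanger, measured 9.65, 8.06 and 9.17 CPM in negative libraries and 85.2, 126 and 139 in positive ones (3.68 ± 0.24, adjusted p = 0.00737), and its heavy chain Slc3a2 rose by 1.44. Both were higher in all 3 pairs, as were 5361 of all 14605 tested genes. Phgdh and Psat1, enzymes of serine synthesis chosen after their values were seen, were not called, and like Asns they were far lower in positive replicates 2 and 3 than in positive replicate 1. Phgdh measured 111, 53.8 and 55.0 CPM in negative libraries and 94.1, 18.3 and 17.1 in positive ones. Psat1 measured 52.6, 38.2 and 37.4 CPM in negative libraries and 44.6, 10.5 and 11.1 in positive ones. In this list positive replicate 1 exceeded the mean of the other 2 by more than 2-fold for 11 of 25 genes, tested or not (44.0%, against 8.01% of all tested genes).

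Among 12 tested eIF2 kinases, eIF2B subunits and phosphatase genes, 3 rose (25.0%, against 18.5% of all tested genes) and none fell (median 0.29). The eIF2β gene Eif2s2 (0.93) rose as its partner Eif2s1 did, and the RNA-sensing kinase gene Eif2ak2 rose by 0.48. Of 18 other ER folding genes, 7 rose (18.5% of all tested genes did) and 2 fell (16.3% of all did), with a median of 0.53. The BiP exchange factor Sil1 (1.24) and Cnpy2 (1.25) had the lowest p-values. The 2 that fell, Ero1lb (-1.44) and Fkbp11 (-2.06), were named after their values were seen. Of 21 genes of the translocon, signal peptidase and glycosylation, 7 rose (33.3%, against 18.5% of all tested genes) and none fell (median 0.56). The oligosaccharyltransferase subunit Stt3a (0.98) and Sec63 (0.68) had the lowest p-values.

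Of 18 other degradation genes, 4 rose (22.2%, near the 18.5% of all tested genes) and none fell (median 0.39). Derl2 (0.65) and Faf2 (0.60) had the lowest p-values. Of 9 other ER stress transducers and their proteases, 3 rose (33.3%, against 18.5% of all tested genes) and none fell (median 0.25). The cell death effector Bax (1.74) and the site-2 protease gene Mbtps2 (0.97), whose product cuts ATF6, had the lowest p-values. In the cytosolic heat shock response 2 of 12 rose, near the 18.5% of all tested genes, and none fell, against 16.3% of all (median 0.25). These were the cochaperone gene Bag3 (2.17) and Hspa4 (0.80). Of 16 immediate early genes, 3 rose and 3 fell (median 0.41), both near the shares of all tested genes, with Egr2 at 1.98 and Btg2 at -2.39.

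**Figure D4:**
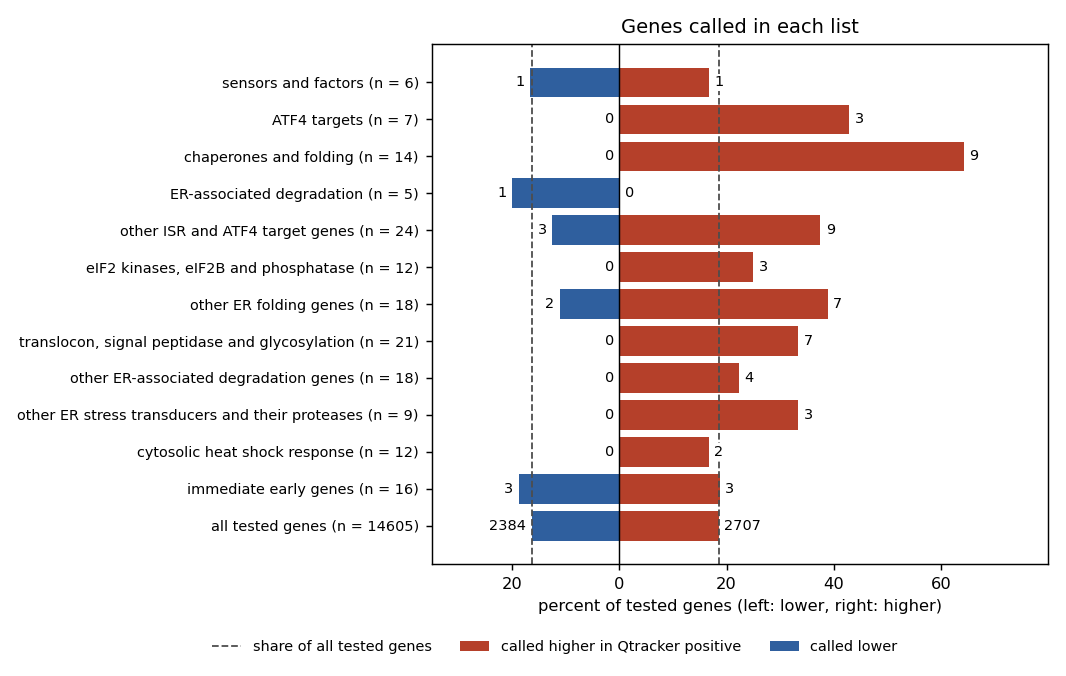
Percent of tested genes called higher (right) and lower (left) in Qtracker positive libraries for each role group and each wider list, with the number of genes at the bar ends; dashed lines mark the shares among all 14605 tested genes (18.5% higher, 16.3% lower). The 14 chaperone and folding genes have the highest share called higher, and the share called higher in the cytosolic heat shock list lies near the dashed line.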

How the data were processed

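RNA of 6 libraries was measured by RNA-seq with a stranded kit, per the labels' protocols. The deposited expected counts cover 21847 genes in whole numbers; FastQC, Salmon and mm10 are named, with no version, per the submitters' processing notes. Since Salmon estimates need not be whole, the deposited estimated counts were taken as rounded. No source used here gives the annotation release. The deposited normalized signal, whose formula the authors do not state, served only as an alternative (log2, pseudocount 1).

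Members and lists were chosen with earlier results of these data known. Symbols were completed, and gene positions taken, from GENCODE M21 (GRCm38). Genes were filtered with filterByExpr (minimum count 10, total 15), scaled by TMM and tested in R 4.3.3 with edgeR 4.0.16 (quasi-likelihood F test, blocked by replicate number). Standard errors come from the F statistic. CPM use TMM-scaled totals, and pair ratios a prior count of 2. The fit was tested on simulated data. The pairing comes from the series' design text; deviations of same-numbered libraries correlated at 0.198, 0.077 and 0.158. Negative 2 with positive 3 gave 0.147 and negative 3 with positive 2 gave 0.116, so the data do not tell numbers 2 and 3 apart.

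All 32 members were named by role. Values in every library were given for sensors, ATF4 targets, Hspa5 and the 4 chaperone or degradation genes with the lowest p, and from each wider list the 2 genes with the lowest p were named. Syvn1, Phgdh, Psat1, Ero1lb, Fkbp11 and the single values of Pdia4 lie outside this rule. Motifs were matched letter by letter in RefSeq windows. Alternatives covered DESeq2 1.42.0 and limma 3.58.1, scalings, filters, leaving out the block or 1 replicate, and summing replicates 2 and 3.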

Additional observations from a re-analysis of the deposited data

How the results depend on the processing

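Over the alternatives, the 32 genes' directions were kept in 32 of 32 with DESeq2 size factors, no filter, a strict filter (50 counts in 3 libraries), the DESeq2 test, limma-voom, the authors' normalized values and no replicate block. Members called higher (13) numbered 12 to 17 under these settings except for 11 with the authors' values, and members called lower 2 or 3. With library totals alone, 8 were higher. Leaving out 1 replicate gave 0 to 25 higher and 0 to 6 lower, and summing replicates 2 and 3 gave 0 and 0, with 10 members and 4488 of all genes at an unadjusted p under 0.05. Over all tested genes, 1572 were called higher with library totals alone and the DESeq2 test called 3665 lower. Leaving out 1 replicate gave 0 to 5538 higher and 0 to 5352 lower, and the summed replicates 0 and 0. Sensors and factors called (2) were 1 with library totals alone or the authors' values. Leaving out 1 replicate gave 0 to 6 of them, 0 to 7 of the ATF4 targets (3), 0 to 13 of the chaperones (9) and 0 to 5 of the degradation genes (1), and the summed replicates gave 0 in each group. Degradation genes called were 4 with the DESeq2 test, 2 with limma-voom and 3 with no replicate block. Without the replicate block, in this paired design, 16 members were higher and 2 lower; 12 of the 13 kept their call, Ppp1r15a lost it, and Ern1, Dnajc3, Sel1l and Derl1 gained one. Signs reversed with library totals alone for the median of the sensors (-0.050), Atf6 (-0.25), Asns (-0.19), Dnajb9 (-0.024), Pdia4 (-0.23) and Creld2 (-0.15), where the median of all genes was also lower. Leaving out 1 replicate put Xbp1 between -0.37 and 0.034 and Asns between -0.65 and 0.63, and the summed replicates put Xbp1 at 0.020. The causes were not tested. In the fits without 1 replicate each group has 2 libraries.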
